A study of Cricetulus griseus with 20 samples.

Results

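Of the 4295 lncRNAs (long noncoding RNAs) measured in Chinese hamster preadipocytes, 508 were annotated lncRNAs that carry an Ensembl gene identifier, and these are described here. They were chosen by identifier alone, as the rows whose name begins with ENSCGRG, and 1 further row with such a name was left out by the rule. The other 3786 lncRNAs were assembled from the reads of the study itself, and they serve as the background. The cells were primary preadipocytes from the inguinal white adipose tissue (iWAT) of female 6-week-old hamsters, and the tissue of the animals was pooled. A cocktail of dexamethasone, insulin and IBMX started adipogenic differentiation, and cells were collected at D0 (undifferentiated), D1, D3, D7 and D11. Hypoxic cells spent the last 24 h before collection in 1% O2 and normoxic cells spent it in conventional culture air, with 2 libraries for each of the 10 groups and 20 libraries in all. Because the tissue was pooled and separate cultures are not described for the libraries, every p-value here measures only the spread between these libraries.

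lncRNAs are transcripts that do not encode a protein, and as a class they are usually less abundant than mRNAs and more restricted to a cell type or stage. Some act on the chromatin or transcription of nearby genes, some act elsewhere in the cell, and the act of transcribing others matters more than their product. In fat cells, lncRNAs take part in the programme that PPARG and C/EBP factors drive, and in hypoxic cells the HIF transcription factors switch on many lncRNAs beside the glycolytic genes. Identifiers stand in place of names throughout, since the sources used here pair none of these 508 lncRNAs with a gene name and give no function for any of them.

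Annotated lncRNAs were mostly scarce. Their level is given as TPM, an abundance corrected for transcript length and sequencing depth, so the levels of different lncRNAs can be set side by side. The mean TPM over the 20 libraries had a median of 0.311 across the 508 annotated lncRNAs, with quartiles of 0.128 and 0.856 and a range of 0.0231 to 410.7. The median of the 3786 assembled lncRNAs was 0.633. A mean of at least 1 TPM was reached by 112 annotated lncRNAs (22.0%) and by 34.6% of the assembled ones, while 315 annotated lncRNAs (62.0%) stayed under 0.5 TPM against 41.8% of the assembled ones. A value of 0 in at least 1 library was listed for 152 annotated lncRNAs (29.9%) and for 14.9% of the assembled ones.

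**Figure D1:**
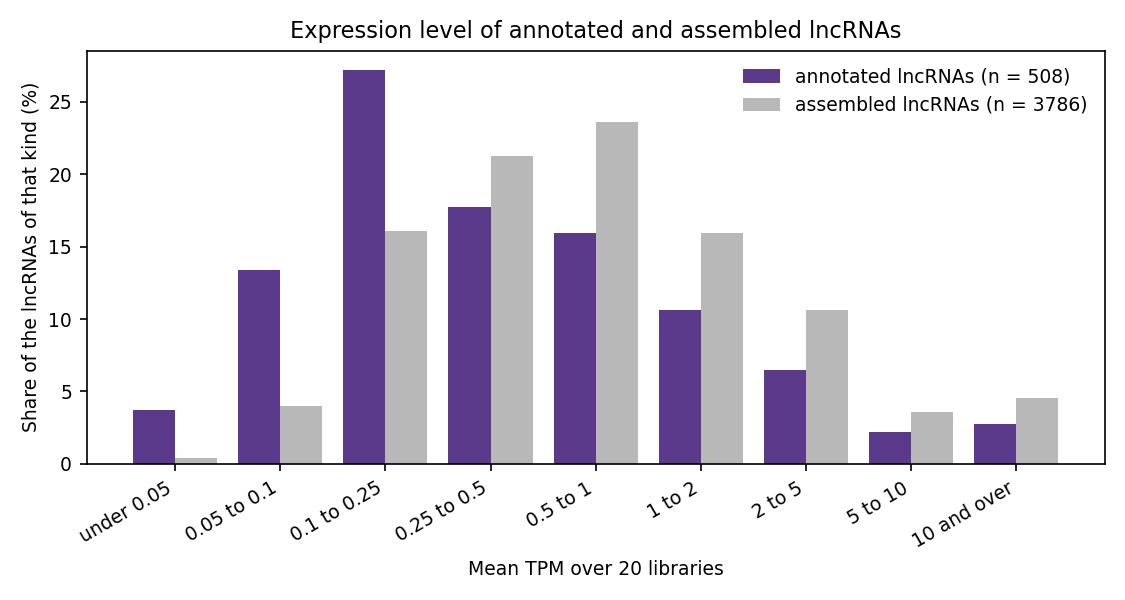
Share of lncRNAs in each class of mean TPM over the 20 libraries (x axis), in percent of the lncRNAs of that kind (y axis), for 508 annotated (purple) and 3786 assembled (grey) lncRNAs. The annotated lncRNAs peaked between 0.1 and 0.25 TPM with 138 members (27.2%), and the assembled ones between 0.5 and 1 TPM with 23.6%.

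Every one of the 508 annotated lncRNAs exceeded 0.1 TPM in both libraries of some group, which was a condition for entering the deposited table. Both libraries of all 10 groups were above 0.1 TPM for 197 annotated lncRNAs (38.8%) and for 63.9% of the assembled ones. Only 1 group carried 63 annotated lncRNAs (12.4%) into the table, against 2.56% of the assembled ones, and a difference of that group from others is partly set by this filter. Read counts of single lncRNAs were not used here, so the precision of a low TPM is unknown. Replicates of a group correlated across the 508 annotated lncRNAs with a Pearson r of 0.926 to 0.948 on log2(TPM + 0.1), and across the assembled ones with 0.946 to 0.968. These are correlations across lncRNAs within pairs of libraries, and lncRNAs are not independent replicates.

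A few lncRNAs held a large share of the signal. ENSCGRG00015010306 was the most abundant, with a mean of 410.7 TPM, and it ranked 7 among all 4295 lncRNAs. It had 421 and 296 TPM in normoxia at D0, 649 and 455 TPM in normoxia at D11, and 932 and 502 TPM in hypoxia at D11. Its replicates differed most in hypoxia at D7, with 269 and 824 TPM, and in no comparison of hypoxia with normoxia or between normoxic timepoints was it DE (differentially expressed). DE means here an adjusted p under 0.01 and an absolute log2 fold change over 1 in limma on log2(TPM + 0.1), with Benjamini-Hochberg adjustment over all 4295 lncRNAs. This lncRNA alone made up 27.0% to 66.7% of the TPM of all annotated lncRNAs in a library, and the 6 most abundant ones together made up 47.0% to 75.8%.

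The next most abundant lncRNAs were ENSCGRG00015011621 with a mean of 58.1 TPM, ENSCGRG00015014762 (11.5 to 94.2 TPM over the libraries), ENSCGRG00015023710 with 37.4 TPM, ENSCGRG00015010332 with 31.3 TPM and ENSCGRG00015012257 with 28.9 TPM. ENSCGRG00015012257 was the steadiest of the 6, with 17.4 to 41.3 TPM over the 20 libraries and no call in any comparison. ENSCGRG00015011621 had 95.5 and 86.7 TPM in normoxia at D0 and 36.2 and 41.8 TPM at D11, and this fall was DE (log2 fold change -1.22, SE 0.19, adjusted p 0.00017). ENSCGRG00015014762 fell over the same interval from 58.8 and 52.9 TPM to 23.6 and 32.1 TPM (log2 fold change -1.02, SE 0.23, adjusted p 0.0024). The libraries of D0 and D11 did not overlap for either of them. Both calls were lost when each library was centred on the median of all lncRNAs, where the log2 fold changes were -0.89 and -0.68.

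As a share of the TPM of all lncRNAs, the annotated ones made up 5.88% to 7.91% in 15 of the 16 libraries from D0 to D7 and 12.7% in the second hypoxic library at D7, in which ENSCGRG00015010306 made up 66.7% of their TPM. At D11 their share was 3.92% and 3.70% in normoxia and 2.56% and 1.27% in hypoxia. The lower share came with a larger total. All lncRNAs together had 9723 to 18070 TPM up to D7. At D11 they had 34290 and 33320 TPM in normoxia and 84620 and 122300 TPM in hypoxia. The annotated ones together had 701 to 1234 TPM up to D7. At D11 they had 1343 and 1231 TPM in normoxia and 2167 and 1557 TPM in hypoxia. The number of annotated lncRNAs over 0.1 TPM ran from 276 in the second hypoxic library at D7 to 421 in the first hypoxic library at D11. The late libraries therefore differed as wholes. Over all 4295 lncRNAs, the median log2 fold change of hypoxia against normoxia lay between 0.03 and 0.15 up to D3, then reached -0.61 at D7 and 1.01 at D11, and that of the mRNAs reached -0.19 and 0.51. A relative log2 fold change below is the log2 fold change minus the median of all lncRNAs in that comparison, while p-values belong to the change before subtraction. In bulk libraries such as these, fewer cells of a type and less RNA per cell cannot be told apart.

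The labels of D11 were checked against mRNAs that HIF switches on. Gapdh, a glycolytic enzyme, had 1013 and 1153 TPM in normoxia and 2208 and 2764 TPM in hypoxia at D7, but 3668 and 3830 TPM in the libraries labelled normoxic and 2257 and 1919 TPM in those labelled hypoxic at D11. Upp1, a uridine phosphorylase, had 18.4 and 18.9 TPM against 42.3 and 50.1 TPM at D7, and 80.2 and 88.8 TPM against 29.6 and 26.2 TPM at D11. The glucose transporter gene Slc2a1 was higher in hypoxia by 1.60 on the log2 scale at D7 and differed by -0.13 at D11. The log2 fold changes of Pgk1 and Bnip3 were 0.61 and 0.68 at D7 and -0.70 and -1.11 at D11, while that of Ankrd37 was 1.29 at D7 and 0.37 at D11. Ndufa4l2, a mitochondrial subunit gene, had log2 fold changes of 4.41, 5.65 and 3.66 at D0, D1 and D3, but of 0.0038 at D7 and 0.03 at D11. It thus had no clear effect at D7 that could turn. All results that use a D11 library, those along normoxic differentiation included, hold for the labels as given. From these files, an exchange of the labels at D11 and an effect of hypoxia that truly turns between D7 and D11 cannot be told apart.

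Across normoxic differentiation, more annotated lncRNAs fell than rose between D0 and the libraries labelled normoxic at D11. Of the 508, 15 rose and 65 fell. These are 2.95% and 12.8%, against 5.63% and 18.6% of all lncRNAs. The median lncRNA changed by -0.38 between these timepoints, and the median relative log2 fold change of the annotated ones was 0.02. The direction of the split depended on the scaling: 31 rose and 36 fell after each library was centred on the lncRNA median, 38 rose and 32 fell after centring on the mRNA median, and 32 rose and 33 fell after quantile normalization. All 15 lncRNAs that rose without scaling also rose under each of these scalings, and 36, 32 and 33 of the 65 that fell also fell under them. Without the first normoxic library at D0 the count of falls was 40, and without the second it was 43. With a pseudocount of 1, 9 rose and 15 fell.

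ENSCGRG00015017641 showed the largest normoxic rise, log2 fold change 4.31 from D0 to D11 (SE 0.20, adjusted p 2e-09). It had 5.59 and 6.64 TPM in normoxia at D0, dropped to 1.23 and 1.13 TPM at D1, and then had 5.90 and 8.84 TPM at D3, 29.1 and 33.8 TPM at D7 and 110 and 136 TPM at D11, where the libraries labelled hypoxic had 42.3 and 33.3 TPM. Each of these 4 steps was DE (log2 fold changes -2.27, 2.51, 2.1 and 1.96), and the libraries of successive timepoints did not overlap. This lncRNA lies near Crim1, which encodes a membrane protein that binds bone morphogenetic proteins, on the opposite strand. ENSCGRG00015013638, whose nearest listed mRNA is Tmem220, followed the same course at a lower level. Its normoxic values at D0 were 0.559 and 0.562 TPM. They were 0.0893 and 0.0155 TPM by D1, and from 0.7 and 1.01 TPM by D3 they reached 3.32 and 4.08 TPM by D7 and 7.92 and 10.3 TPM by D11. All 4 steps were DE as well, and the change from D0 to D11 was 3.79 on the log2 scale (SE 0.29, adjusted p 2.9e-07).

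The other leading rises took other courses. ENSCGRG00015017677, near the complement regulator gene Cd46, stood at 0.238 and 0.227 TPM in normoxia at D0 and at 2.70 and 2.88 TPM at D11, a log2 change of 3.12 (SE 0.24, adjusted p 2.4e-07). Most of this rise was made by D1, when it had 1.12 and 1.04 TPM (log2 fold change 1.83, adjusted p 0.00039), and the 3 later steps were not DE. ENSCGRG00015000389 rose from 0.122 and 0.158 TPM to 1.97 and 1.90 TPM (log2 fold change 3.09, SE 0.38, adjusted p 2e-05), and here the last step, from D7 to D11, was the DE one (log2 fold change 1.75, adjusted p 0.0037). The abundant ENSCGRG00015010332 also rose at the last step, from 15.3 and 23.1 TPM to 68.7 and 58.8 TPM (log2 fold change 1.75, SE 0.34, adjusted p 0.0017).

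Among the normoxic falls, ENSCGRG00015007393, near the linker histone gene Hist1h1d, had the largest. It stood at 1.64 and 1.40 TPM at D0, 1.31 and 1.2 TPM at D3, 0.467 and 0.401 TPM at D7 and 0.0199 and 0.0664 TPM at D11 (log2 fold change -3.52 from D0 to D11, SE 0.25, adjusted p 1.3e-07). The libraries labelled hypoxic at D11 had 1.62 and 1.93 TPM, near the level of D0, so this fall depends on the D11 labels. ENSCGRG00015023489 fell from 1.52 and 2.46 TPM to 0.195 and 0.0718 TPM (log2 fold change -3.18, SE 0.47, adjusted p 8.5e-05). ENSCGRG00015024363, near the neuritin gene Nrn1, kept 7.55 and 6.74 TPM in normoxia at D7 and had 0.590 and 0.572 TPM at D11, so its fall of -2.86 from D0 (SE 0.45, adjusted p 0.00016) came after D7. ENSCGRG00015017834 lay lower at each later timepoint, from 1.04 and 1.01 TPM at D0 to 0.0542 and 0.0817 TPM at D11 (log2 fold change -2.75, SE 0.30, adjusted p 7.4e-06), and no single step of it was DE.

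Step by step, 76 of the 508 annotated lncRNAs were DE in at least 1 of the 4 normoxic steps, which is 15.0% against 19.5% of all lncRNAs. From D0 to D1, 8 rose and 11 fell, against 1.58% and 2.49% of all lncRNAs. From D1 to D3, 5 rose and 4 fell, against 1.02% and 1.21%. From D3 to D7, 13 rose and 2 fell, against 2% and 2.14%. From D7 to D11, 8 rose and 46 fell, against 3.38% and 9.85% of all lncRNAs.

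Induction itself marked a small set. ENSCGRG00015013090 had 0.905 and 0.851 TPM in normoxia at D0, then 5.34 and 5.43 TPM at D1, then 1.61 and 1.85 TPM at D3 and 0.138 and 0.221 TPM at D7, a pulse at D1 whose rise (log2 fold change 2.49, SE 0.27, adjusted p 9.4e-05) and both later falls (-1.59 and -2.72, adjusted p 0.0025 and 1.9e-05) were DE. ENSCGRG00015000123 had a smaller pulse, from 1.62 and 1.24 TPM before induction to 4.08 and 3.62 TPM at D1 and back to 1.47 and 1.41 TPM by D3, and both of its steps were DE (log2 fold changes 1.38 and -1.35, SE 0.18). In both, the D1 libraries lay above all other normoxic libraries. ENSCGRG00015007556 was listed at 0 in both normoxic libraries at D0 and had 2.1 and 0.505 TPM at D1, 2.94 and 4.02 TPM at D3 and 0.914 and 1.32 TPM at D7 before it was listed at 0 and 0.0670 TPM at D11.

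Opposite courses at induction were a dip at D1. ENSCGRG00015014460 had 7.6 and 7.25 TPM in normoxia at D0, then 1.93 and 2.93 TPM at D1, then 10.8 and 16.0 TPM at D3 (log2 fold changes -1.60 and 2.42, SE 0.26, adjusted p 0.0016 and 9.5e-05), kept 18.5 and 13.6 TPM at D7 and fell to 1.74 and 1.70 TPM at D11. ENSCGRG00015008906 fell from 1.40 and 0.626 TPM to 0.0264 and 0.0517 TPM at D1 (log2 fold change -2.91, SE 0.59, adjusted p 0.0059). The 5 lncRNAs that rose from D1 to D3 were ENSCGRG00015017641, ENSCGRG00015014460, ENSCGRG00015013638, ENSCGRG00015000913 and ENSCGRG00015002236, and the 4 that fell were ENSCGRG00015000123, ENSCGRG00015013090, ENSCGRG00015011555 and ENSCGRG00015013537, of which the last 2 in each list are named after their values were seen.

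A further set stood out in normoxia at D7. ENSCGRG00015016674 was listed at 0 in both normoxic libraries at D0, had 0.0283 and 0.0840 TPM at D3, 2.19 and 2.42 TPM at D7 and 0.0589 and 0.0653 TPM at D11, and both its rise to D7 (log2 fold change 3.97, SE 0.56, adjusted p 0.00043) and its fall after it (-3.89, adjusted p 0.0002) were DE. ENSCGRG00015000513, near Spry2, an inhibitor of receptor tyrosine kinase signalling, rose from 0.212 and 0.537 TPM at D3 to 2.57 and 3.35 TPM at D7 (log2 fold change 2.77, SE 0.56, adjusted p 0.0052). ENSCGRG00015007100, near the synphilin gene Sncaip, rose from 0.550 and 0.483 TPM to 3.08 and 3.38 TPM (log2 fold change 2.43, SE 0.30, adjusted p 0.00013).

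Taking each annotated lncRNA at the timepoint of its highest normoxic mean, 120 peaked before induction, 121 at D1, 46 at D3, 159 (the most) at D7 and 62 at the last timepoint. In the same order these are 23.6%, 23.8%, 9.06%, 31.3% and 12.2%, against 29.9%, 24.3%, 7.66%, 23.4% and 14.8% of the assembled lncRNAs. The libraries labelled normoxic at D11 had a mean below those of all earlier normoxic groups for 229 of the 508, and those labelled hypoxic at D11 for 56, so this count depends on the D11 labels. After each library was centred on the lncRNA median, 122 (24.0%) still had their highest value at D7, against 16.5% of the assembled ones, and 130 (25.6%) had it at D11. A peak timepoint is a description of means and was not tested.

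**Figure D2:**
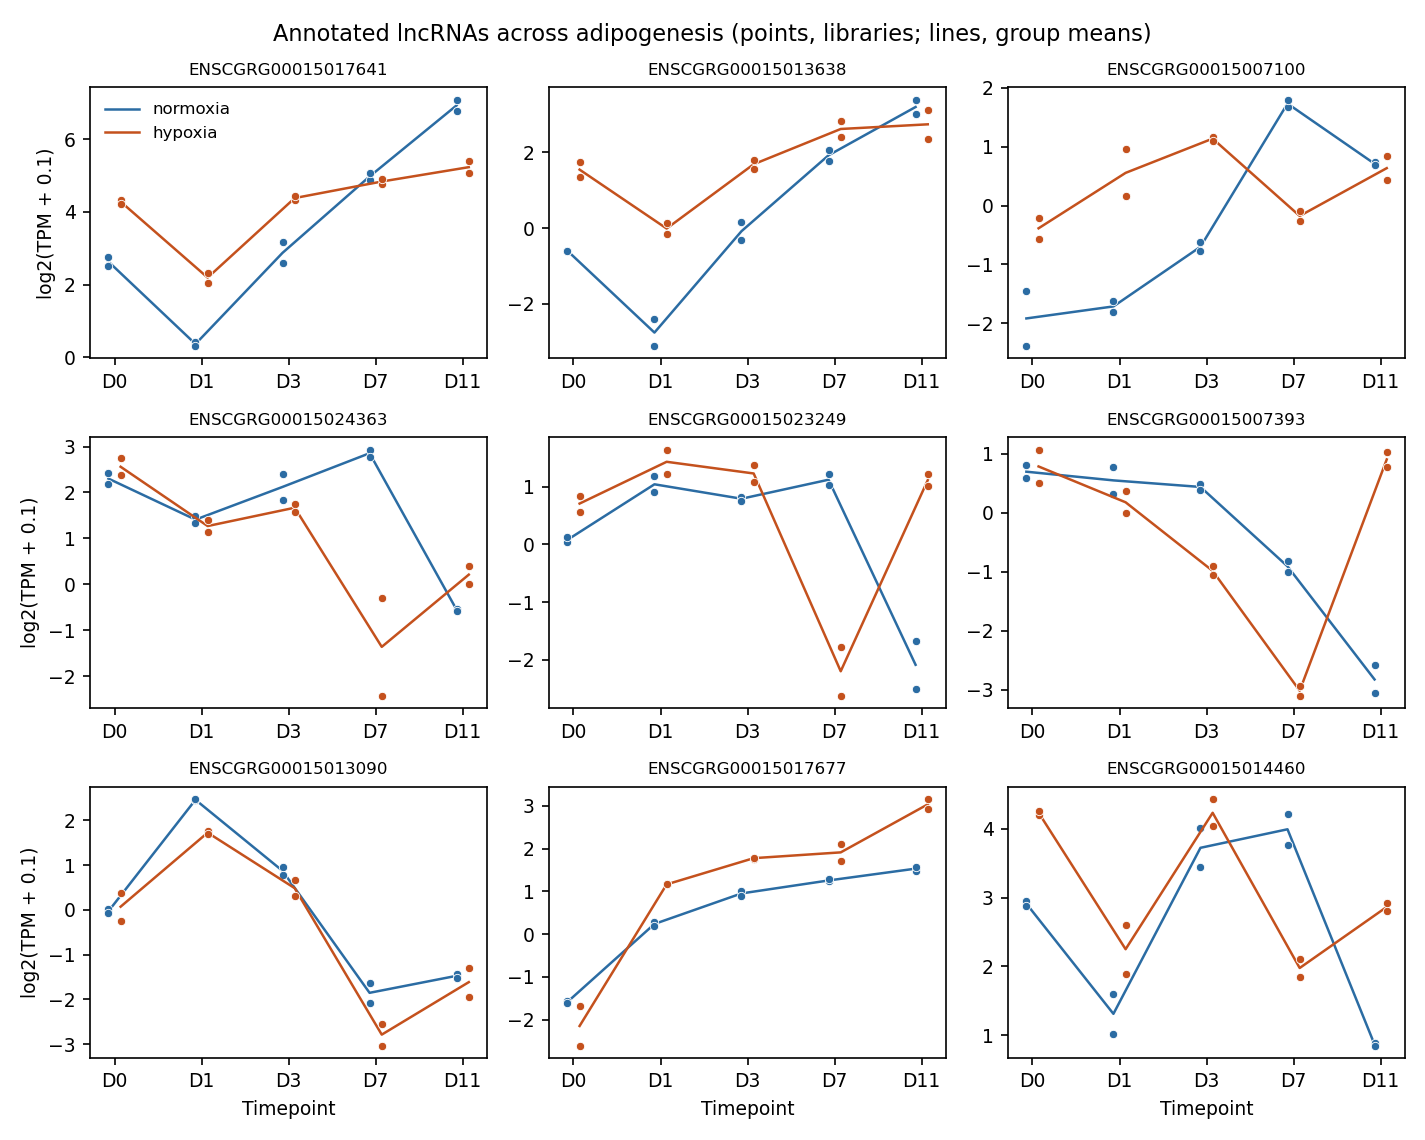
Level of 9 annotated lncRNAs across adipogenesis, as log2(TPM + 0.1) (y axis) at D0, D1, D3, D7 and D11 (x axis), in normoxia (blue) and hypoxia (orange). Points are single libraries and lines join group means. ENSCGRG00015017641 and ENSCGRG00015013638 dip at D1 and climb to D11, ENSCGRG00015013090 peaks at D1, and ENSCGRG00015023249 and ENSCGRG00015007393 lie low in the hypoxic libraries at D7 and in the normoxic libraries at D11.

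Hypoxia moved few annotated lncRNAs before D7. At D0, 3 of 508 were higher in hypoxia and 0 were lower by limma, against 0.722% and 0.0931% of all lncRNAs. At D1, 4 were higher and 1 was lower, against 0.861% and 0.373%. At D3, 5 were higher and 2 were lower, against 0.978% and 0.861%. As shares of the 508 these counts are 0.591% and 0%, then 0.787% and 0.197%, then 0.984% and 0.394%, and the median relative log2 fold changes of the 508 were -0.03, 0.02 and 0.05. The median lncRNA had moved by at most 0.15 at these timepoints. At D0, 79 of the 508 and 806 of all 4295 lncRNAs had an unadjusted p under 0.05 by limma in either direction. The same held for 94 and 805 at D1 and for 84 and 857 at D3. Scaling changed the split at D1 to 6 higher and 3 lower (lncRNA median) and at D3 to 6 higher and 5 lower (quantile normalization). These counts are small, and leaving out a single library of the comparison changed them: the 3 at D0 became 0 without the first hypoxic library and 1 without the second hypoxic or the second normoxic one, the 4 at D1 became 2 without the second hypoxic or the first normoxic one, and the 5 at D3 became 1 without the first hypoxic library and 0 without the second hypoxic or the first normoxic one. A fit of each timepoint alone made 0 calls at these and both later timepoints.

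ENSCGRG00015017641 was higher in hypoxia at all 3 early timepoints. At D0 it had 5.59 and 6.64 TPM in normoxia and 20.1 and 18.6 TPM in hypoxia (log2 fold change 1.65, relative 1.5, SE 0.20, adjusted p 0.00067). At D1 it had 1.23 and 1.13 TPM in normoxia and 4.04 and 4.93 TPM in hypoxia (1.83, relative 1.73, adjusted p 0.00014), and at D3 5.90 and 8.84 TPM against 20.1 and 21.4 TPM (1.51, relative 1.49, adjusted p 0.00065). The libraries of the 2 conditions did not overlap at any of these timepoints. At D7 they did, with 29.1 and 33.8 TPM in normoxia and 27.0 and 30.1 TPM in hypoxia (log2 fold change -0.14, adjusted p 0.60). At D11 the libraries labelled normoxic had 110 and 136 TPM and those labelled hypoxic 42.3 and 33.3 TPM, a log2 fold change of -1.70 (relative -2.71, adjusted p 1.1e-05).

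ENSCGRG00015013638, near Tmem220, was the other lncRNA higher at D0, D1 and D3. It had 0.559 and 0.562 TPM in normoxia against 2.46 and 3.22 TPM in hypoxia at D0 (log2 fold change 2.14, relative 1.99, SE 0.29, adjusted p 0.0016). At D1 it had 0.0893 and 0.0155 TPM against 0.996 and 0.796 TPM (2.74, relative 2.65, adjusted p 0.00013), and at D3 0.7 and 1.01 TPM against 3.39 and 2.86 TPM (1.77, relative 1.74, adjusted p 0.0033). Hypoxic libraries lay above normoxic ones each time. At D7 the values were 3.32 and 4.08 TPM in normoxia and 5.15 and 7.03 TPM in hypoxia, which did not pass the test (log2 fold change 0.69, adjusted p 0.075).

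ENSCGRG00015005581 lies within 5 kb of Atxn7l1 on the opposite strand. It had 0.194 and 0.203 TPM in normoxia and 1.18 and 0.944 TPM in hypoxia at D0 (log2 fold change 1.95, relative 1.8, SE 0.32, adjusted p 0.0040), and 0.260 and 0.271 TPM against 1.14 and 1.36 TPM at D1 (1.88, relative 1.78, adjusted p 0.0040). At D3, with 0.266 and 0.230 TPM against 0.601 and 0.339 TPM, and at D7 it did not pass the test. It was again higher at D11, with 1.74 and 1.30 TPM in the libraries labelled hypoxic against 0.214 and 0.481 TPM (log2 fold change 1.91, adjusted p 0.00015), where its relative change was 0.90 and the call was lost after centring on the lncRNA median.

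At D1 and D3, ENSCGRG00015007100 was higher in hypoxia as well, with 0.187 and 0.224 TPM in normoxia against 1.02 and 1.84 TPM in hypoxia at D1 (log2 fold change 2.27, relative 2.17, SE 0.30, adjusted p 0.00069) and 0.550 and 0.483 TPM against 2.15 and 2.05 TPM at D3 (1.84, relative 1.81, adjusted p 0.0028). The order turned at D7, when normoxia had 3.08 and 3.38 TPM and hypoxia 0.842 and 0.733 TPM (log2 fold change -1.91, relative -1.30, adjusted p 0.00031). The hypoxic libraries of D3 thus lay between the normoxic libraries of D3 and D7. Also at D3, ENSCGRG00015006126 had 0.334 and 0.513 TPM in normoxia and 1.96 and 2.08 TPM in hypoxia (log2 fold change 2.04, relative 2.01, SE 0.32, adjusted p 0.0023), and ENSCGRG00015016022 had 0 and 0.136 TPM against 2.04 and 1.40 TPM (3.54, relative 3.52, SE 0.71, adjusted p 0.0086).

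Only 3 annotated lncRNAs were lower in hypoxia before D7. At D3, ENSCGRG00015007393 near Hist1h1d had 1.31 and 1.2 TPM in normoxia and 0.379 and 0.433 TPM in hypoxia (log2 fold change -1.42, relative -1.45, SE 0.25, adjusted p 0.0044). ENSCGRG00015021366, near Map4k3, a kinase of amino acid signalling to mTORC1, had 4.2 and 5.75 TPM against 2.17 and 2.05 TPM (-1.18, relative -1.21, SE 0.21, adjusted p 0.0047). Both calls were lost when any 1 of the 4 libraries of D3 was left out. At D1, ENSCGRG00015018547, which is named after its values were seen, had 1.37 and 0.342 TPM in normoxia and was listed at 0 in both hypoxic libraries, and it was over 0.1 TPM in both libraries of no other group. Its call was lost in 17 of the 20 fits that left out 1 library.

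**Figure D3:**
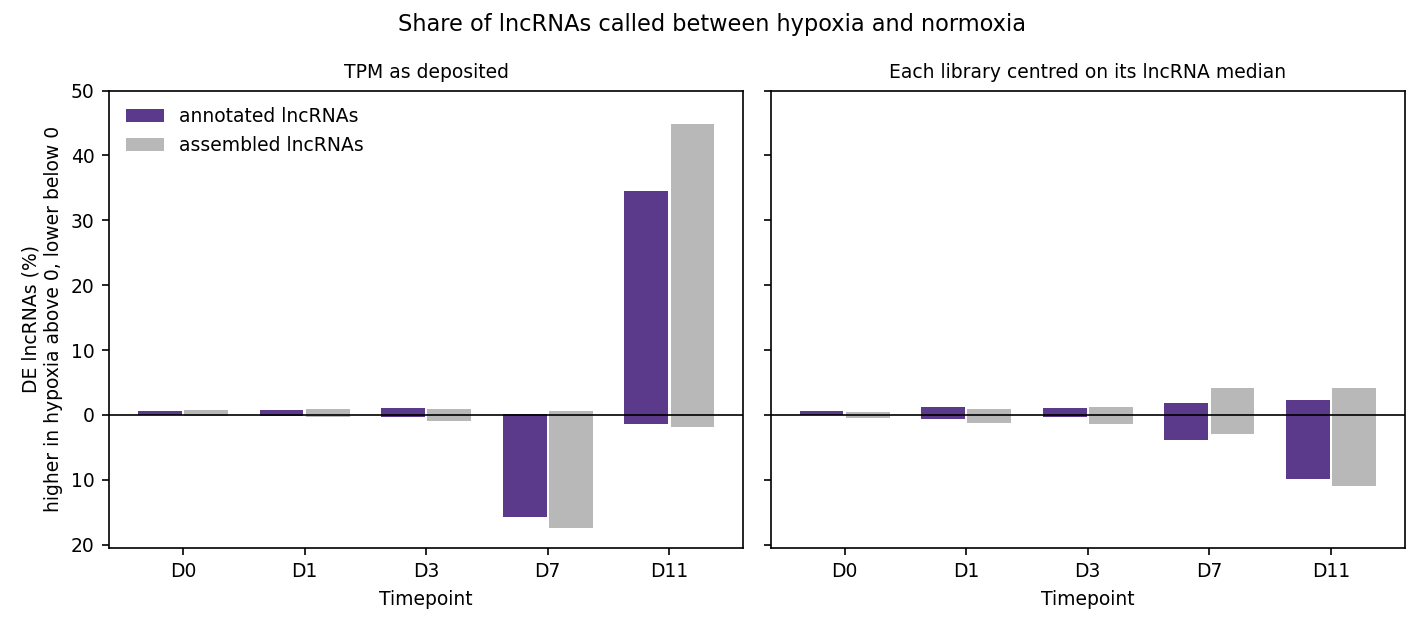
Percent of annotated (purple, n = 508) and assembled (grey, n = 3786) lncRNAs that were DE between hypoxia and normoxia at each timepoint, higher in hypoxia above the line and lower below it, for the TPM as deposited (left) and after each library was centred on the median of all lncRNAs (right). At D11, 34.4% of the annotated and 44.9% of the assembled lncRNAs were higher as deposited, and 2.36% and 4.15% after centring.

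At D7 the annotated lncRNAs were lower in hypoxia as a group, together with all other lncRNAs. Of the 508, 80 were lower and 1 was higher. These are 15.7% and 0.197%, against 17.2% and 0.559% of all lncRNAs. Their median relative log2 fold change was -0.03 with quartiles of -0.49 and 0.37, so the annotated lncRNAs did not stand apart from the shift of -0.61 in all lncRNAs. The split changed with scaling, to 9 higher and 20 lower after centring on the lncRNA median, 1 higher and 43 lower after centring on the mRNA median and 8 higher and 26 lower after quantile normalization, and all lower calls under these scalings were among the 80. The count of 80 also became 37 without the second hypoxic library at D7, which held the fewest annotated lncRNAs over 0.1 TPM, and 27 without the second normoxic one. With a pseudocount of 1, 22 were lower and 0 higher.

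The lncRNAs that follow were lower at D7 by far more than the median lncRNA. ENSCGRG00015024363 near Nrn1 had 7.55 and 6.74 TPM in normoxia and 0.714 and 0.0858 TPM in hypoxia (log2 fold change -4.22, relative -3.61, SE 0.45, adjusted p 1.5e-05). ENSCGRG00015012061, within 5 kb of Fam92a on the opposite strand, had 17.0 and 6.73 TPM against 0.632 and 0.880 TPM (-3.67, relative -3.06, SE 0.50, adjusted p 0.0001). ENSCGRG00015023249, within 5 kb of Spag6, a gene of the sperm tail, had 1.95 and 2.22 TPM against 0.192 and 0.0619 TPM (-3.32, relative -2.71, SE 0.29, adjusted p 3.9e-06). In all 3, normoxic and hypoxic libraries lay apart at D7, while at D0 and D1 their differences did not pass the test. All 3 remained DE after centring on the lncRNA median, with log2 fold changes of -3.52, -2.97 and -2.63.

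ENSCGRG00015020308, near Atp6v0e, which encodes a subunit of the vacuolar proton pump, was the single annotated lncRNA higher at D7. It had 0.729 and 1.04 TPM in normoxia and 2.19 and 2.68 TPM in hypoxia (log2 fold change 1.38, relative 1.99, SE 0.22, adjusted p 0.00036), and its libraries did not overlap. In the other groups it lay between 0.816 and 3.24 TPM. The 23 named lncRNAs that were DE at D7 included 11 that were DE after centring on the lncRNA median: ENSCGRG00015020308, the 3 just described, ENSCGRG00015007393, ENSCGRG00015021366, ENSCGRG00015007100, ENSCGRG00015014460, ENSCGRG00015003031, ENSCGRG00015026550 and ENSCGRG00015016667.

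At D11, 175 of the 508 annotated lncRNAs were higher in the libraries labelled hypoxic and 7 were lower. These are 34.4% and 1.38%, against 43.6% and 1.86% of all lncRNAs. The median relative log2 fold change of the annotated ones was -0.15, and 44.3% of them lay above the median of all lncRNAs. Of the 175, 14 were over 0.1 TPM in both libraries of no other group, so for these the filter on the table and the call are not independent. Scaling changed the split to 12 higher and 50 lower after centring on the lncRNA median, 54 higher and 16 lower after centring on the mRNA median, and 13 higher and 15 lower after quantile normalization. The 7 lower calls were made under each scaling. Without the first normoxic library at D11 the count of higher lncRNAs was 113. With a pseudocount of 1, 38 were higher and 2 lower.

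The share of lncRNAs that were DE at D11 varied with their level. Under 0.25 TPM of mean level, 23.6% of 225 annotated and 29.3% of 776 assembled lncRNAs were DE. Between 0.25 and 0.5 TPM these shares were 38.9% and 48.6%, between 0.5 and 1 TPM 59.3% and 56.2%, between 1 and 5 TPM 44.8% and 55.9%, and at 5 TPM and over 28.0% and 29.6%. The annotated share was thus lower in 4 of the 5 classes and higher in the other. These shares are a description and were not tested against each other.

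ENSCGRG00015007393 near Hist1h1d rose furthest at D11, with 0.0199 and 0.0664 TPM in the libraries labelled normoxic and 1.62 and 1.93 TPM in those labelled hypoxic (log2 fold change 3.73, relative 2.72, SE 0.25, adjusted p 2.3e-07). ENSCGRG00015004324, near the lysophospholipid acyltransferase gene Mboat1, had 0.381 and 0.339 TPM against 4.37 and 5.39 TPM (3.43, relative 2.42, SE 0.77, adjusted p 0.0014). ENSCGRG00015016674 had 0.0589 and 0.0653 TPM against 1.22 and 2.13 TPM (3.41, relative 2.40, SE 0.56, adjusted p 0.00015). None of these libraries overlapped between the conditions. The first and the last stayed DE after centring on the lncRNA median, with log2 fold changes of 2.61 and 2.29, and ENSCGRG00015004324 did not (2.31, adjusted p 0.031).

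The 7 lncRNAs that were lower at D11 went against the shift of all lncRNAs. ENSCGRG00015024753, near the G1 cyclin-dependent kinase gene Cdk6, had 1.15 and 1.70 TPM in the libraries labelled normoxic and 0.354 and 0.0194 TPM in those labelled hypoxic (log2 fold change -2.69, relative -3.70, SE 0.50, adjusted p 0.00038). ENSCGRG00015014443 had 1.48 and 1.22 TPM against 0.233 and 0.501 TPM (-1.69, relative -2.70, SE 0.42, adjusted p 0.0029). ENSCGRG00015001549, near the microsomal glutathione transferase gene Mgst1, had 1.98 and 1.81 TPM against 0.824 and 0.497 TPM (-1.43, relative -2.43, SE 0.24, adjusted p 0.00018). ENSCGRG00015004531, near Vegfa, was lower at both late timepoints. It had 1.22 and 1.43 TPM in normoxia and 0.328 and 0.214 TPM in hypoxia at D7 (log2 fold change -1.96, relative -1.35, SE 0.42, adjusted p 0.0025), and 0.419 and 0.747 TPM against 0.234 and 0.0325 TPM at D11 (-1.66, relative -2.67, adjusted p 0.0031). It was the single annotated lncRNA lower at both D7 and D11, and after centring on the lncRNA median its call at D7 was lost (log2 fold change -1.26, adjusted p 0.027). The remaining ones were ENSCGRG00015017641, described above, and ENSCGRG00015005993 and ENSCGRG00015013176, which are named after their values were seen and had means of 0.597 and 0.222 TPM.

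**Figure D4:**
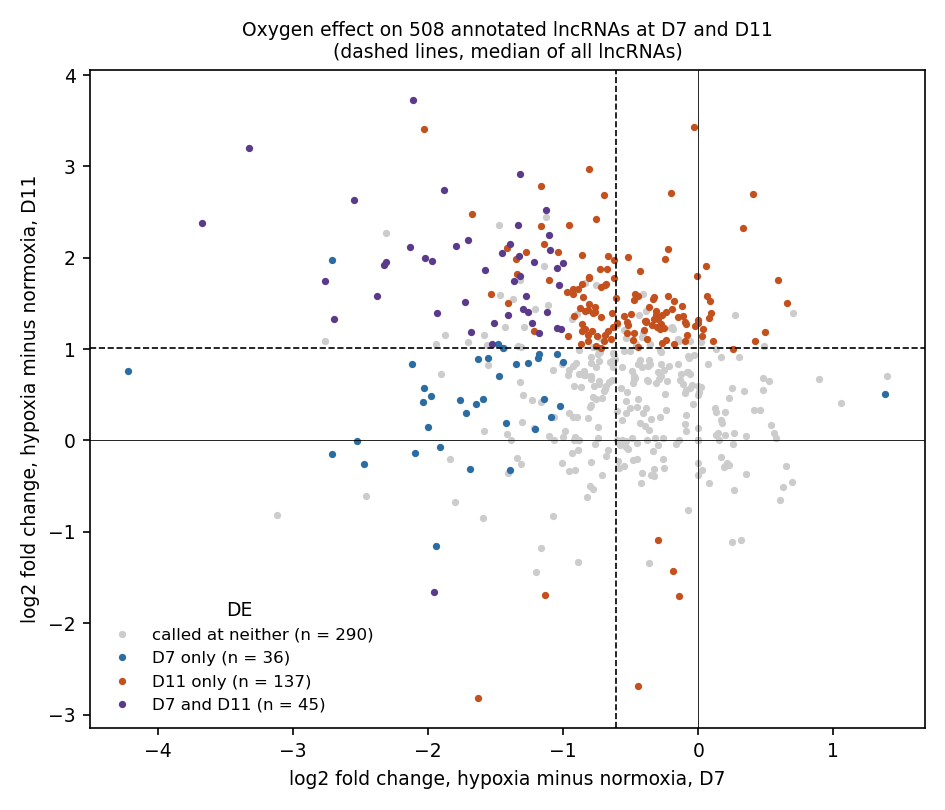
Log2 fold change of hypoxia against normoxia at D7 (x axis) and at D11 (y axis) for each of the 508 annotated lncRNAs, coloured by the timepoints at which it was DE. Dashed lines mark the median of all lncRNAs, -0.61 at D7 and 1.01 at D11, and the 44 lncRNAs lower at D7 and higher at D11 lie in the upper left.

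Of the 80 annotated lncRNAs that were lower at D7, 44 were higher at D11, which is 55.0% of the first list and 25.1% of the 175 in the second. Among all lncRNAs these shares were 67.9% and 26.7%, and 34.4% of all 508 were higher at D11. After centring on the lncRNA median, 4 lncRNAs were lower at D7 and higher at D11, out of 20 and 12. The difference of the effects itself, D11 minus D7, was positive past both thresholds for 242 of 508 annotated lncRNAs and negative for 3, against 54.1% and 1.19% of all lncRNAs. After centring on the lncRNA median these numbers were 28 and 50, after centring on the mRNA median 94 and 12, and after quantile normalization 35 and 23. Under a pseudocount of 1, 97 shifted up and 1 shifted down. The 3 negative ones were ENSCGRG00015017641, ENSCGRG00015001549 and, named after its values were seen, ENSCGRG00015027403, near the cell cycle inhibitor gene Cdkn1b. Without the first hypoxic library at D11 there were 5.

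ENSCGRG00015023249 near Spag6 had the largest difference, 6.53 on the log2 scale (SE 0.42, adjusted p 5e-08). Its effect at D7 was -3.32, and at D11 it had 0.0765 and 0.213 TPM in the libraries labelled normoxic and 1.92 and 2.22 TPM in those labelled hypoxic (log2 fold change 3.20, adjusted p 2e-06). ENSCGRG00015016667, within 5 kb of the transcription factor gene Atoh8 on the opposite strand, had 1.41 and 1.58 TPM in normoxia and 0.261 and 0.105 TPM in hypoxia at D7, and 0.129 and 0.275 TPM against 2.15 and 1.37 TPM at D11. Its effects were -2.55 and 2.64 (SE 0.32), and the difference was 5.19 (SE 0.46, adjusted p 6.1e-07). For both lncRNAs the hypoxic libraries of D7 overlapped those labelled normoxic at D11, and the normoxic libraries of D7 overlapped those labelled hypoxic at D11. ENSCGRG00015012061 near Fam92a differed by 6.05 (SE 0.70, adjusted p 6.3e-06), with 1.57 and 0.589 TPM in the libraries labelled normoxic and 3.81 and 7.86 TPM in those labelled hypoxic at D11. ENSCGRG00015007393, ENSCGRG00015016674 and ENSCGRG00015024363 differed by 5.83, 5.44 and 4.98. All 6 of these differences passed the thresholds after centring on the lncRNA median, at 3.16 to 4.71.

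Over the 5 timepoints, 221 annotated lncRNAs (43.5%) were DE between hypoxia and normoxia at least once, against 53.5% of the assembled ones. Of these, 171 were DE at 1 timepoint, 44 at 2, 5 at 3 and 1 at 4, and 46 were DE in both directions. ENSCGRG00015017641 was the one DE at 4 timepoints. In the same direction at 3 timepoints were 3 lncRNAs, namely ENSCGRG00015017641, ENSCGRG00015013638 and ENSCGRG00015005581. The 65 lncRNAs that fell in normoxia from D0 to D11 included 28 that were lower in hypoxia at D7 and 33 that were higher at D11, and the 15 that rose included 2 and 2. Of all lncRNAs, 17.2% were lower at D7 and 43.6% higher at D11. These overlaps and the 46 were not counted among all lncRNAs, so they cannot be read as particular to the annotated ones. The comparisons of D11 with D0 and of hypoxia with normoxia at D11 share the normoxic D11 libraries, so their counts are set side by side and are not independent.

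**Figure D5:**
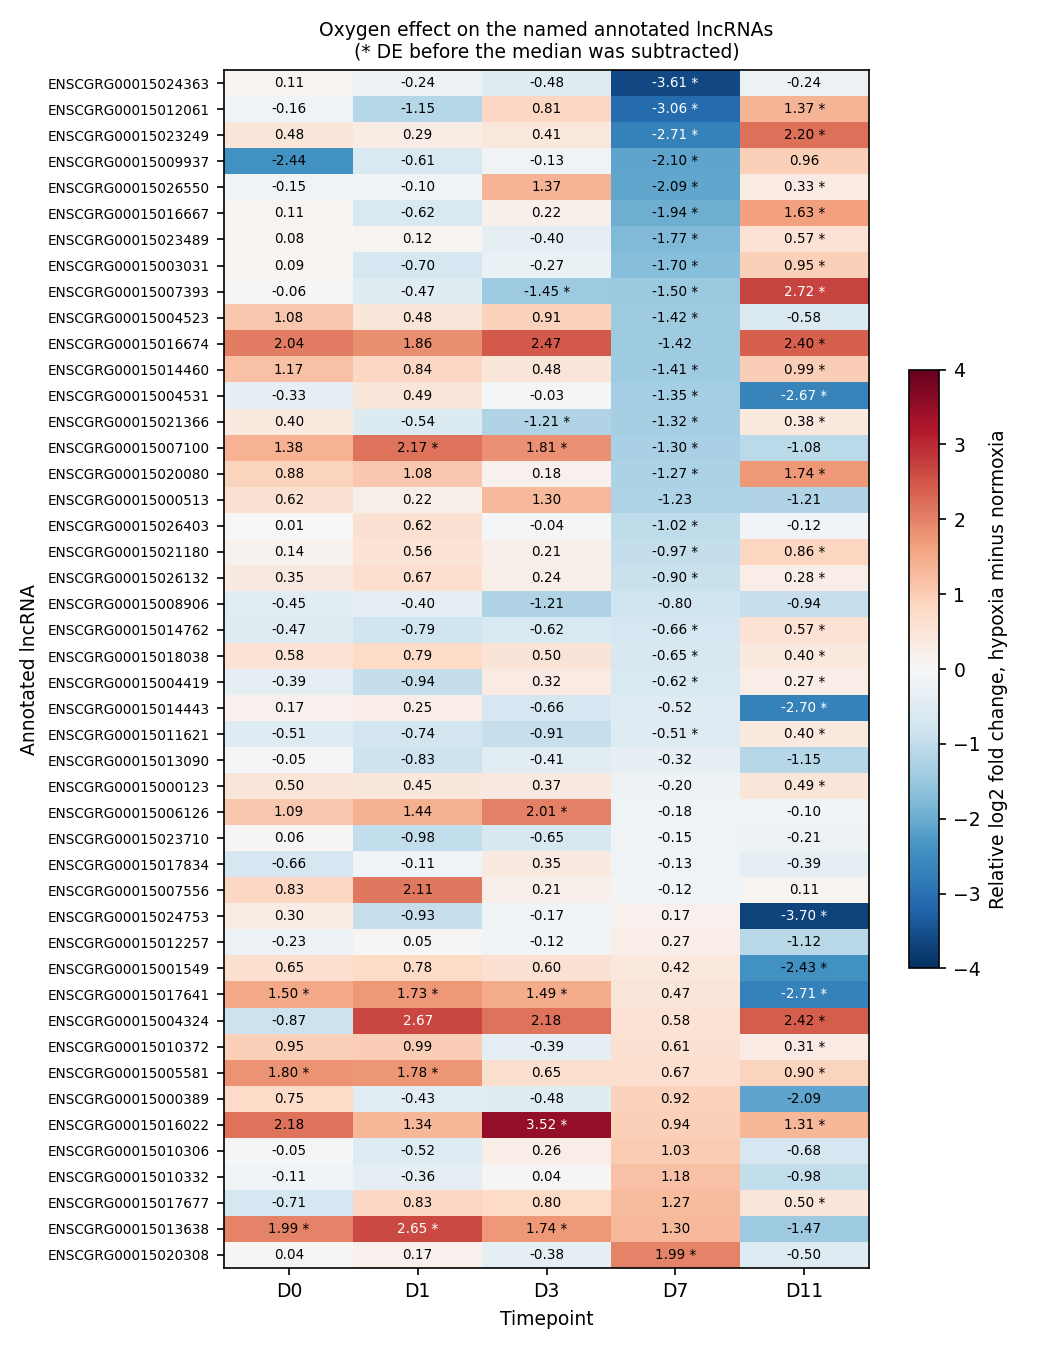
Relative log2 fold change of hypoxia against normoxia for the 46 named annotated lncRNAs (rows, ordered by their value at D7) at the 5 timepoints (columns), on a colour scale from -4 (blue) to 4 (red). An asterisk marks DE before the median of all lncRNAs was subtracted. ENSCGRG00015024363 has the lowest value at D7, -3.61, and ENSCGRG00015020308 the highest, 1.99.

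Neighbouring mRNAs were set beside 82 of the 508 annotated lncRNAs. The study lists mRNAs within 100 kb only for lncRNAs it called on these same libraries, and the copy of the list used here is shortened at D11, so the neighbours are no independent evidence. For 19 of the 82, the nearest listed mRNA lay within 5 kb, and 12 of these 19 were on the opposite strand. The effect on a lncRNA and on an overlapping or antisense partner may share reads, since the strand setting of the quantification is not given in the sources used here. An mRNA was DE with an adjusted p under 0.05 and an absolute log2 fold change over 1 in limma on log2(TPM + 1), as were 0.882%, 1.77% and 1.88% of all mRNAs at the first 3 timepoints, 5.54% at D7 and 23.9% at D11.

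Few nearest mRNAs passed both thresholds in the direction of their DE lncRNA. The pseudocount of 1 understates fold changes of scarce mRNAs more than the 0.1 used for lncRNAs would. At D7, 41 of the 82 lncRNAs were DE, and the nearest mRNA was DE in the same direction for 4 of them and in the opposite direction for 0. At D11, 41 were DE, and the nearest mRNA was DE in the same direction for 8 and in the opposite direction for 3. Of all 82 nearest mRNAs, 6.10% were DE at D7 and 30.5% at D11. At D0 and D1 none of the nearest mRNAs passed both thresholds. Under the fold threshold, those of the DE lncRNAs were higher in hypoxia too. At D0 the log2 fold changes by limma were 0.80 for Atxn7l1 (adjusted p 8.8e-05), 0.67 for Tmem220 (0.027) and 0.62 for Crim1 (0.0056). At D1 they were 0.90 for Crim1 (5.2e-05), 0.72 for Atxn7l1 (0.00011), 0.70 for Sncaip (0.0016) and 0.39 for Tmem220 (0.11). At D3 1 of the 5 DE lncRNAs had a DE mRNA, ENSCGRG00015017641 with Crim1. Crim1 had 13.2 and 15.9 TPM in normoxia and 31.0 and 30.4 TPM in hypoxia at D3 (log2 fold change 1.03, adjusted p 1e-05). At D11 Crim1 was higher in the libraries labelled hypoxic, with 76.5 and 62.6 TPM against 30.4 and 34.7 TPM (1.07, adjusted p 4.6e-07), opposite to the lncRNA.

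Sncaip, Ogt and Mis12 were lower in hypoxia at D7 together with their lncRNAs. ENSCGRG00015007100 is given above, and Sncaip had 4.35 and 5.14 TPM in normoxia and 1.05 and 1.17 TPM in hypoxia (log2 fold change -1.44, adjusted p 3.2e-07). Ogt, which attaches O-linked N-acetylglucosamine to proteins, had 34.4 and 40.8 TPM against 19.3 and 12.9 TPM (-1.2, adjusted p 3e-06), and ENSCGRG00015009937, within 5 kb on the same strand, had 0.264 and 1.53 TPM against 0.0269 and 0.00855 TPM (-2.71, SE 0.65, adjusted p 0.0053). The D7 call of ENSCGRG00015009937 was lost after centring on the lncRNA median (-2.01, adjusted p 0.037 by limma). Mis12, a kinetochore gene, had 13.4 and 13.1 TPM against 6.73 and 3.91 TPM (-1.21, adjusted p 1.3e-05), and ENSCGRG00015003031 had 0.344 and 0.623 TPM against 0.0138 and 0.0148 TPM (-2.31, SE 0.33, adjusted p 0.00017). Libraries of the conditions lay apart in each case. Mis12 and ENSCGRG00015003031 were both higher at D11, by 1.28 and 1.95 on the log2 scale, and the call of the lncRNA was lost after centring on the lncRNA median (0.83, adjusted p 0.063). Atoh8 had 6.55 and 5.89 TPM in the libraries labelled normoxic and 80.1 and 66.5 TPM in those labelled hypoxic at D11 (3.36, adjusted p 3.9e-12), the direction of ENSCGRG00015016667. Its change of -0.89 at D7 was in the direction of the lncRNA too but under the fold threshold.

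For other pairs the neighbour did not pass the test where the lncRNA did, or went the other way. Spag6 had 1.09 and 1.22 TPM in normoxia and 1.26 and 1.12 TPM in hypoxia at D7, when ENSCGRG00015023249 was lower by 3.32 on the log2 scale. Vegfa, the main angiogenic growth factor, had 42.3 and 42.6 TPM against 36.3 and 42.6 TPM at D7 (log2 fold change -0.11, adjusted p 0.51), and ENSCGRG00015004531 was lower. At D11 Vegfa had 26.7 and 31.4 TPM in the libraries labelled normoxic and 54.0 and 46.7 TPM in those labelled hypoxic. This rise (0.77, adjusted p 2e-05 by limma) was under the fold threshold and opposite to the fall of ENSCGRG00015004531. Cav2, a caveolin, changed by 0.38 at D7, when ENSCGRG00015026403 fell from 15.8 and 15.3 TPM to 5.98 and 4.12 TPM (-1.63, relative -1.02, SE 0.20, adjusted p 4.2e-05), a call lost after centring on the lncRNA median by fold size alone (-0.93, adjusted p 0.00052). Vnn1, a pantetheinase, was lower at D11 in the libraries labelled hypoxic (-1.02, adjusted p 6e-06), when ENSCGRG00015026550 was higher with 0.404 and 0.167 TPM against 0 and 0.112 TPM, a call lost after centring on the lncRNA median (0.21, adjusted p 0.70). These 4 pairs are examples, and the counts above cover all 82.

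By the function of any listed neighbour, 8 annotated lncRNAs lay near genes of the cell cycle and growth, of which 3 were lower at D7, 4 higher at D11 and 1 lower at D11. A lncRNA with neighbours in different groups was counted in each, so the counts of the groups overlap. Near genes of lipid, retinoid and metabolic function lay 12, of which 7 were lower at D7, 8 higher at D11 and 1 lower at D11. Near growth factor and vessel genes lay 4, all 4 lower at D7, with 2 higher and 1 lower at D11, and near matrix and adhesion genes lay 4, of which 3 were lower at D7 and 2 higher at D11. All 4 D7 calls of the growth factor and vessel group were lost after centring on the lncRNA median (log2 fold changes -0.815 to -1.26). Its 2 rises at D11 were lost too, while its fall at D11 was kept. Near chromatin genes lay 5 and near feedback genes of kinase and cytokine signalling 4, with 1 lower at D7 and 1 higher at D11 in each. The median relative log2 fold change at D7 was -1.14 for the growth factor and vessel group, -1.08 for matrix and adhesion, -0.59 for lipid and metabolism, -0.32 for signalling feedback, 0.28 for the cell cycle and 0.54 for chromatin, against -0.55 for all 82 listed lncRNAs. Of the 82, 40 were lower at D7, 37 higher at D11 and 4 lower at D11. These lncRNAs were listed because the study called them, so neither counts nor medians can be read against those of all 508.

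Of the marker genes of adipocytes, 7 of 11 could be looked up by name, of progenitors and fibroblasts 2 of 7, of endothelium 1 of 4 and of macrophages 0 of 5. The summed TPM of the adipocyte markers was 165 in normoxia at D0, 585 at D7 and 519 at D11, and in hypoxia 183, 427 and 492. Fabp4, a fatty acid carrier, and Pparg, the leading adipogenic transcription factor, made up most of these sums. At D7 Fabp4 had 421 TPM in normoxia and 215 TPM in hypoxia, and Pparg had 74.2 and 142 TPM. At D11 Cd36, Lpl, Plin4, Lipe and Pnpla2, genes of fatty acid uptake, lipid droplets and lipolysis, were all above normoxia in the libraries labelled hypoxic, Cd36 with 56.0 against 6.78 TPM, while Fabp4 and Pparg were below. The summed progenitor markers were 22.0 TPM in normoxia and 11.5 TPM in hypoxia at D7, and 11.4 and 26.0 TPM at D11, most of it from Pdgfra. The endothelial marker Pecam1 had 1.85 and 0.685 TPM at D7 and 0.728 and 2.03 TPM at D11. Pdgfra and Pecam1 were thus lower in hypoxia at D7 and higher at D11, as was the median mRNA (log2 fold changes -0.19 and 0.51). The adipocyte sum was lower in hypoxia at both timepoints. Whether the make-up of the cells had a part in the lncRNA results was not tested.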

How the data were processed

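Strand-specific libraries of RNA depleted of ribosomal RNA were sequenced in 20 samples, 2 in each of 10 groups that the sample titles name. Per the labels and the methods of the study, images were processed with CASAVA 1.8.2, reads were aligned to the hamster genome CriGri-PICR with STAR 2.6.0c, transcripts without coding potential were classed as lncRNAs, and the authors computed the deposited TPM values with kallisto 0.44.0. The study used edgeR, which needs counts. The files hold TPM only, so limma 3.58.1 in R 4.3.3 was used here on log2(TPM + 0.1) of all 4295 lncRNAs, with 1 mean per group, a trended prior, 10 residual degrees of freedom and Benjamini-Hochberg adjustment within a comparison. DE is an adjusted p under 0.01 and an absolute log2 fold change over 1. The pseudocount of 0.1 understates fold changes of lncRNAs near that level. mRNAs were fitted on log2(TPM + 1). The fit was also run on simulated data, but the settings and outcome of that run are not given here, so no result rests on it. TPM are shares of a library, so a shift of abundant transcripts moves all others, and near-identical copies, overlapping and antisense transcripts can share reads.

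All values use the deposited tables, and 0 columns of values were left unmapped. Neighbours and mRNA names came from the supplementary tables of the study (3845 mRNAs named), and the RefSeq table at hand pairs 0 genes with these identifiers, so no sequence is shown. Annotated lncRNAs are named when they are among the 6 most abundant; among the 3 largest DE rises or falls at a timepoint, the 4 from D0 to D11 or the 2 of a normoxic step, with at least 1 TPM in the higher group and no overlap; DE in 1 direction at 3 timepoints; nearest to a gene of a listed group and DE; or among the 6 largest differences between D7 and D11. The lncRNAs, lists and rules were chosen with earlier results of these data known. Alternatives were pseudocounts of 0.01 and 1, a filter at 0.5 TPM, 3 scalings, a fit of each timepoint alone, a replicate block, each library left out and an adjusted p under 0.05. Tables and figures used Python 3.11.15, pandas 2.3.3, numpy 2.4.6 and matplotlib 3.10.9.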

Additional observations from a re-analysis of the deposited data

Results flagged for a closer look

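The oxygen effect on annotated lncRNAs differed between D7 and D11 by a test of the difference itself (limma, adjusted p under 0.01 and an absolute log2 difference over 1). The effect at D11 was above that at D7 for 242 of the 508 and below it for 3. These are 47.6% and 0.591%, against 54.1% and 1.19% of all lncRNAs. They hold for the D11 labels as given, which may be exchanged. The largest differences were 6.53 on the log2 scale for ENSCGRG00015023249, 6.05 for ENSCGRG00015012061, 5.83 for ENSCGRG00015007393, 5.44 for ENSCGRG00015016674, 5.19 for ENSCGRG00015016667 and 4.98 for ENSCGRG00015024363. The median over all lncRNAs was 1.59, and after centring each library on the lncRNA median 28 were above and 50 below. With 2 libraries in a group, no test for an outlying library within its group was run.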

How the results depend on the processing

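All counts here are annotated lncRNAs that were DE, higher before lower in hypoxia unless stated. Fitting each timepoint alone, with 2 residual degrees of freedom, left 0 DE lncRNAs in either direction at all 5 timepoints. Centring on the lncRNA median gave 6 higher and 3 lower at D1, 9 and 20 at D7, 12 and 50 at D11, 31 rises and 36 falls from D0 to D11 in normoxia, and 28 positive and 50 negative differences between D11 and D7. Centring on the mRNA median gave 5 higher at D0, 7 higher at D1, 43 lower at D7, 54 higher and 16 lower at D11, 38 rises and 32 falls, and differences of 94 and 12. Quantile normalization gave 2 lower at D1, 5 lower at D3, 8 and 26 at D7, 13 and 15 at D11, 32 rises and 33 falls, and differences of 35 and 23. With a pseudocount of 1 there were 2 higher and 0 lower at D1, 0 lower at D3, 0 higher and 22 lower at D7, 38 higher and 2 lower at D11, 9 rises and 15 falls, and differences of 97 and 1. With a pseudocount of 0.01 there were 0 lower at D1 and 3 higher at D3. With an adjusted p under 0.05 there were 8 higher at D0, 12 at D1 and 14 at D3, 6 lower at D3, 11 lower at D11, 24 rises and 7 negative differences. The median relative log2 fold change at D7 was -0.15 with a filter at 0.5 TPM, -0.23 with a pseudocount of 0.01 and 0.053 with a pseudocount of 1. The causes of these changes were not tested.

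Leaving out each library in turn gave, for D0, 0 to 5 higher and 0 lower throughout. The ranges were 2 to 6 and 0 to 1 at D1, 0 to 5 and 0 to 3 at D3, 1 to 2 and 27 to 81 at D7, and 113 to 173 and 5 to 9 at D11. It gave 11 to 18 rises, 40 to 66 falls, 173 to 246 positive and 2 to 5 negative differences. The relative medians ranged from -0.03 to 0.01 at D0, from 0.01 to 0.04 at D1, from 0.04 to 0.07 at D3, from -0.06 to 0.01 at D7 and from -0.16 to -0.07 at D11. The 5 at D0 came without either hypoxic library of D1, and the 2 higher at D7 without the second hypoxic library of D7. A lone library was assumed to vary like the other groups.

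Replicate numbers did not pair the libraries. The correlation of same-numbered deviations lay between 0.036 and 0.058 up to D3 and was -0.10 at D7 and 0.007 at D11. With the replicate block, D0 had 0 DE lncRNAs either way, and there were 3 higher and 0 lower at D1, 0 and 0 at D3, 1 and 64 at D7, 156 and 6 at D11, and differences of 203 and 3. A crossed block at D7, added after the data were seen, gave 1 higher and 69 lower.

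For the comparisons by which the rule named a lncRNA, 298 of 354 values kept their side of the threshold under the other settings. These comparisons were picked by their results in the same data. The fit of each timepoint alone kept 0 of 21 values, the replicate block 18 of 27 and centring on the lncRNA median 50 of 51. No value changed sign under these settings or when a library was left out. Among all DE comparisons of the named lncRNAs, that centring kept 9 of 28 at D11 and 14 of 28 differences between D11 and D7. It kept 17 of 20 from D0 to D11 in normoxia.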

Other observations

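The following values were noticed after the data were seen and belong to no comparison. ENSCGRG00015011621 and ENSCGRG00015014762, the lncRNAs ranked 2 and 3 by level, kept a nearly fixed ratio of TPM over the 20 libraries, between 1.19 and 1.81 with a median of 1.47, although ENSCGRG00015011621 itself ran from 20.3 to 112 TPM. ENSCGRG00015010306 and ENSCGRG00015010332 had a ratio between 7.74 and 19.4 with a median of 14.5, while ENSCGRG00015010306 itself ran from 217 to 932 TPM. Whether either pair shares sequence or transcripts was not tested.

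A relative log2 fold change above 1 was found for a larger share of annotated than of assembled lncRNAs at D0, D1 and D3, and few of these passed the test. It was found for 5.51% against 3.46% at D0 and for 5.31% against 3.49% at D1. Below -1 lay 2.95% against 1.955% at D0 and 2.95% against 3.33% at D1. At D3, 35 of 508 (6.89%) lay above 1 and 19 (3.74%) below -1, against 3.72% and 3.96% of the assembled ones. The median absolute difference between replicates, on the log2 scale, was 0.31 for annotated lncRNAs of 1 to 5 TPM and 0.25 for assembled ones of that level. It was larger for annotated lncRNAs in every class of level, with 0.34 against 0.33 under 0.25 TPM and 0.23 against 0.21 at 5 TPM and over.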
